A study of Mus musculus with 12 samples.

Results

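The mRNAs of 9 secreted proteins were measured in mouse peritoneal macrophages that lack or carry the deubiquitinase Usp5. The genes are Saa3, Ptx3, Edn1, Lcn2, Slpi, Hp, S100a8, S100a9 and Lyz2, chosen by name as acute phase or antimicrobial products, 9 of the 48709 genes in the deposited table. Saa3, Ptx3 and Edn1 were included because they differed strongly between the genotypes, so their genotype values are given as a description without a test. A gene passed the test at a Benjamini-Hochberg adjusted p under 0.05 over all 12455 genes tested. For the other 6 genes the genotypes were compared with a test, and the LPS response was tested for all 9.

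The cells came from Usp5 myeloid knockout mice (MKO) or from wild-type mice (WT) and were collected after 3 h or 0 h of lipopolysaccharide (LPS), with 3 libraries in each of the 4 groups. The 0 h samples also carry LPS as their treatment label, while the series text speaks of mock cells. Neither the Cre line, the age of the mice nor the LPS dose is given, and no label ties the 3 libraries of a group to different animals, so the p-values reflect the spread among these libraries, which may be technical. Total RNA was sequenced, and total counts ran from 14762709 to 20778862 per library. Usp5 lay between 26.9 and 28.0 CPM (counts relative to the scaled library total) in MKO 3 h and between 28.7 and 31.4 CPM in MKO 0 h libraries, against 106 to 111 CPM in WT 3 h and 101 to 121 CPM in WT 0 h libraries. Replicate 3 of MKO 0 h and replicate 3 of WT 0 h stood apart from the other 2 libraries of their groups, and calls that change without a library are given beside the result. Adgre1 led a macrophage marker list whose summed level was 9886 to 10745 CPM in MKO and 12304 to 14303 CPM in WT libraries, while a list of 9 markers of the large resident macrophages of the peritoneum summed to 34.0 to 39.9 CPM in MKO and 19.9 to 27.3 CPM in WT libraries. Of these 9, Gata6, Timd4, Cxcl13 and Vsig4 were under 0.1 CPM in all 12 libraries, Icam2 lay between 12.04 and 17.7 CPM, and F5 and Selp were higher in MKO at both times by edgeR (F5 by 1.26 at 3 h and 1.43 at 0 h on the log2 scale). In bulk RNA, fewer cells of a type and less RNA per cell cannot be told apart.

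Acute phase proteins are secreted in large amounts during inflammation, mostly by the liver, and macrophages make some of them locally. Their genes are commonly switched on by NF-kB and C/EBP transcription factors downstream of cytokine and Toll-like receptors. Saa3, a serum amyloid A, and Ptx3, a long pentraxin that coats microbes and engages complement, belong to this group, as does haptoglobin (Hp), which binds free haemoglobin. Lipocalin 2 (Lcn2) starves bacteria of iron by binding their siderophores, Slpi inhibits leukocyte serine proteases, lysozyme (Lyz2) cleaves bacterial cell walls, and S100a8 and S100a9 form calprotectin, which sequesters zinc and manganese. Edn1 encodes the precursor of endothelin-1, a vasoconstrictor peptide that activated macrophages also release.

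The promoters of the 3 genes with the largest differences between groups are shown to set the 3 side by side. Each window runs from 250 bases before to 50 bases after the RefSeq start, in GRCm38.p6 (the mm10 build), and the table held such windows for 8 of the 9 genes. Capitals mark matches, on either strand, to the C/EBP motif TTNNGCAA or to the NF-kB motif known as the kB consensus. Saa3 lies at chr7:46715627-46715926 on the minus strand, Ptx3 at chr3:66219637-66219936 on the plus strand, and Edn1 at chr13:42301226-42301525 on the plus strand.
Saa3: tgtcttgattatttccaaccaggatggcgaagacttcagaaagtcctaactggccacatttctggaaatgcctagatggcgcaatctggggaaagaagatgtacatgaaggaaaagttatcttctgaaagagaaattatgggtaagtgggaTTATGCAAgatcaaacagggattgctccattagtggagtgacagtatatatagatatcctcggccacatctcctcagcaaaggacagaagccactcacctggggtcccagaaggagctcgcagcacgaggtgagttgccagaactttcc
Ptx3: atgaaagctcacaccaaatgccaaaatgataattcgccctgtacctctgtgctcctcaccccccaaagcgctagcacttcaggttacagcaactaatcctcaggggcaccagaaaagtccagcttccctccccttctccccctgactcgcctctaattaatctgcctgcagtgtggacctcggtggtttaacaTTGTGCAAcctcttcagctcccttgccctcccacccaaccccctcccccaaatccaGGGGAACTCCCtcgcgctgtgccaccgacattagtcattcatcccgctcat
Edn1: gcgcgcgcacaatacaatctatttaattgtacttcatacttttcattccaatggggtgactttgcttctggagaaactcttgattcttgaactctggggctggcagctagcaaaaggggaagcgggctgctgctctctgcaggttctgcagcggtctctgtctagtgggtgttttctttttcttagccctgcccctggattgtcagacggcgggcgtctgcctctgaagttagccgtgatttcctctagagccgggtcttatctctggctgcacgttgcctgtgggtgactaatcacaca
The Saa3 window held 1 C/EBP match, at positions 152 to 159 counted from 1 at the 5′ end. The Ptx3 window held a C/EBP match at positions 194 to 201 and overlapping matches to the kB consensus at positions 250 to 260, and the Edn1 window held neither motif. Lcn2, Slpi and S100a9 each had a C/EBP match as well, and S100a8 and S100a9 each had TATAAA. Of 32851 promoter windows of the same length, 10.8% held the C/EBP motif, 4.51% the kB consensus and 13.6% TATAAA, while TGANTCA, the AP-1 motif, was in 7.81% and in none of the 8. A match describes letters in the window and is not evidence of binding.

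Saa3 had the largest gap between genotypes in absolute level. It had 549.6, 537 and 428 CPM in MKO 3 h and 377, 352 and 442 CPM in MKO 0 h libraries, against 1867, 1959 and 1776 CPM in WT 3 h and 1644, 1726 and 1317 CPM in WT 0 h libraries. Every MKO library lay below every WT library at both times. The MKO level was 27.0% of WT at 3 h (log2 fold change -1.89) and 25.0% at 0 h (log2 fold change -2.001), values used in choosing the gene. LPS moved Saa3 little in comparison. In MKO cells it was 1.29-fold higher at 3 h (log2 fold change 0.37, SE 0.11, edgeR adjusted p = 0.037), with overlapping ranges, and this call was lost under 10 of 21 alternatives, with adjusted p from 2.7e-05 to 0.32. Without MKO 3 h replicate 1 the adjusted p was 0.14, without MKO 3 h replicate 2 it was 0.13, without MKO 0 h replicate 1 it was 0.098, without MKO 0 h replicate 2 it was 0.10, and without WT 3 h replicate 1 or 2 it was 0.052 or 0.0503 (edgeR). In WT cells the difference did not pass (log2 fold change 0.26, SE 0.11, edgeR adjusted p = 0.095), and the 3 WT 3 h libraries lay above the 3 WT 0 h libraries, while without a filter on low counts it passed (0.24, edgeR adjusted p = 0.032). Saa3 sits on chromosome 7 (46711998 to 46715700, minus strand), and 3.91% of the 50-base windows of its transcript occur in other transcripts, mostly in Malat1.

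Ptx3 was higher after LPS in both genotypes and was barely detected in WT cells at 0 h. It had 10.1, 11.3 and 9.86 CPM in MKO 3 h and 1.22, 1.52 and 1.20 CPM in MKO 0 h libraries, against 7.96, 8.56 and 6.44 CPM in WT 3 h and 0.129, 0.0587 and 0.0601 CPM in WT 0 h libraries. The WT 0 h group rests on 4 counts in all, and the MKO 0 h group on 76. At 0 h the MKO level was 16.2-fold that of WT, and at 3 h it was 1.36-fold that of WT, with no overlap between the genotypes at either time. LPS raised Ptx3 in both genotypes, 7.85-fold in MKO (95% interval 6.17 to 10.1, for counting error only) and 93.4-fold in WT (36.2 to 345). The fitted LPS changes were 2.98 in MKO (SE 0.17, edgeR adjusted p = 5.6e-09) and 6.43 in WT (SE 0.29, edgeR adjusted p = 1.9e-10) on the log2 scale. The gap between these 2 responses carries the resting difference that chose the gene and was not tested. No WT 0 h library reached the 0.574 CPM minimum for testing, so the adjusted p in WT is not support for a response. Ptx3 lies on chromosome 3 (66219910 to 66225805, plus strand) inside Veph1, which is on the opposite strand and had 0 counts in all 12 libraries.

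Edn1 was low in all 0 h libraries and reached its highest level in LPS-treated WT cells. It had 3.08, 3.53 and 4.08 CPM in MKO 3 h and 0.366, 0.426 and 0.698 CPM in MKO 0 h libraries, against 24.1, 25.5 and 23.8 CPM in WT 3 h and 0.129, 0.294 and 0.240 CPM in WT 0 h libraries. The order of the genotypes was opposite at the 2 times, and the ranges did not overlap at either. At 3 h the MKO level was 14.7% of WT (log2 fold change -2.77), and at 0 h it was 2.25-fold that of WT, from 29 counts in MKO and 11 in WT. LPS raised Edn1 by 2.82 in MKO (SE 0.22, edgeR adjusted p = 3.1e-07) and by 6.73 in WT (SE 0.22, edgeR adjusted p = 3.2e-12) on the log2 scale. In counts these were 7.15-fold in MKO (95% counting interval 4.82 to 10.95) and 109-fold in WT (60.8 to 219). Edn1 reached the 0.574 CPM minimum for testing in all 3 h libraries, in 1 MKO 0 h library and in 0 WT 0 h libraries. It entered the test through the groups in which it is high, so its adjusted p-values are not support for a response. Edn1 lies on chromosome 13 (42301270 to 42307989, plus strand), and the deposited start falls upstream of the RefSeq start, inside the promoter window shown.

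**Figure D1:**
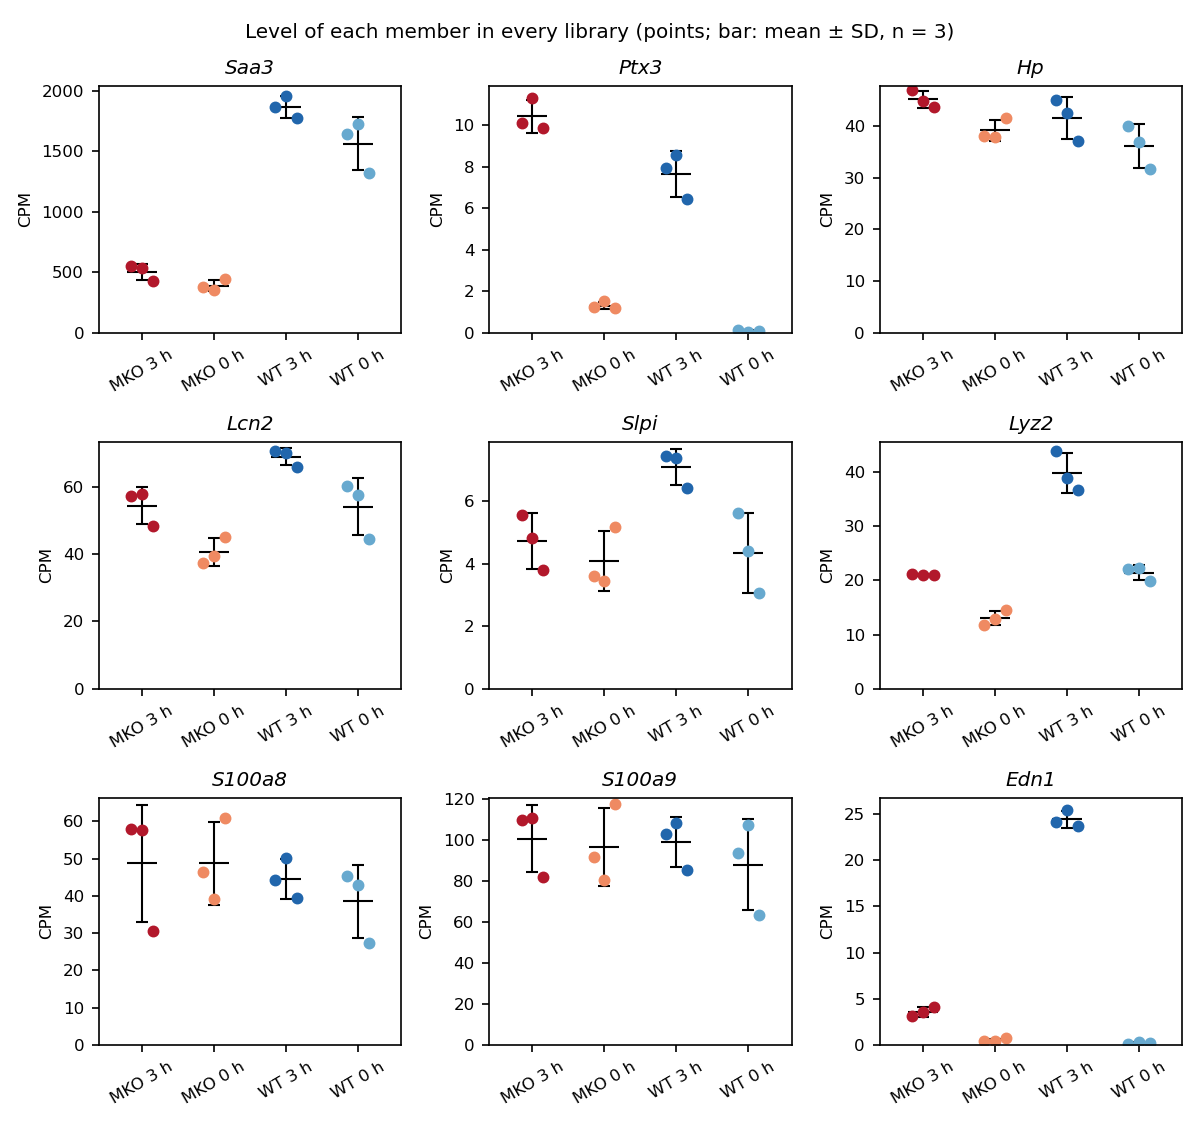
Level of each of the 9 genes in CPM on a linear axis, 1 panel per gene, with 1 point per library and a bar for the mean ± SD of the 3 libraries of a group. Saa3 separates by genotype at both times, Ptx3 is lowest in WT 0 h, Edn1 reaches 23.8 to 25.5 CPM in WT 3 h libraries alone, and S100a8 and S100a9 spread widely within groups.

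Lyz2 was lower in MKO cells and higher after LPS. It had 21.2, 21.0 and 20.9 CPM in MKO 3 h and 11.8, 12.8 and 14.5 CPM in MKO 0 h libraries, against 43.9, 38.9 and 36.8 CPM in WT 3 h and 22.05, 22.3 and 19.8 CPM in WT 0 h libraries. No pair of groups compared overlapped. The genotype difference was -0.92 at 3 h (SE 0.089, edgeR adjusted p = 1.7e-06) and -0.71 at 0 h (SE 0.095, edgeR adjusted p = 5.6e-05) on the log2 scale. The LPS change was 0.69 in MKO (SE 0.094, edgeR adjusted p = 0.00011) and 0.90 in WT (SE 0.089, edgeR adjusted p = 1.7e-06). These 4 calls held under all 21 alternatives. A widely used myeloid Cre is inserted at the Lyz2 locus, and the labels do not name the Cre, so an altered Lyz2 allele and a change in expression cannot be told apart in the genotype comparison. The tandem copy Lyz1 shares 15.4% of the 50-base windows of the Lyz2 transcript, and the split of reads between the copies makes both levels uncertain. Lyz1 was also lower in MKO, by edgeR at the same threshold, with log2 differences of -0.43 at 3 h and -0.39 at 0 h, and it did not pass for LPS (-0.20 in MKO and -0.16 in WT). The ratio of Lyz2 to Lyz1 counts was 0.888 to 1.08 in MKO 3 h, 0.449 to 0.580 in MKO 0 h, 1.24 to 1.53 in WT 3 h and 0.588 to 0.714 in WT 0 h libraries.

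Lcn2 followed the same directions as Lyz2 with smaller differences. It had 57.1, 57.9 and 48.2 CPM in MKO 3 h and 37.2, 39.3 and 45.1 CPM in MKO 0 h libraries, against 70.7, 70.1 and 65.9 CPM in WT 3 h and 60.2, 57.6 and 44.3 CPM in WT 0 h libraries. The genotypes did not overlap at 3 h and overlapped at 0 h, where the third replicate of each genotype crossed the other group. Lcn2 was lower in MKO, with a difference of -0.34 at 3 h (SE 0.11, edgeR adjusted p = 0.021) and of -0.41 at 0 h (SE 0.11, edgeR adjusted p = 0.011) on the log2 scale. LPS raised it by 0.42 in MKO (SE 0.11, edgeR adjusted p = 0.018) and by 0.35 in WT (SE 0.11, edgeR adjusted p = 0.024). The 3 h genotype call and the LPS call in WT depended on scaling: with library size alone the genotype difference was -0.092 (edgeR adjusted p = 0.47) and the LPS change in WT was 0.13 (edgeR adjusted p = 0.32). Single libraries ended each call: without MKO 3 h replicate 3 the 3 h genotype value was -0.26 (edgeR adjusted p = 0.10) and without WT 3 h replicate 1 or 2 its adjusted p was 0.064 or 0.059, and without WT 0 h replicate 1 the 0 h value was -0.33 (edgeR adjusted p = 0.059). The LPS calls were lost in MKO without MKO 0 h replicate 1, MKO 3 h replicate 1 or MKO 3 h replicate 2 (edgeR adjusted p = 0.070 to 0.078), and in WT without WT 0 h replicate 3, WT 3 h replicate 1 or WT 3 h replicate 2 (edgeR adjusted p = 0.068 to 0.074).

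Slpi was higher in LPS-treated WT cells than in either of the groups it was compared with. It had 5.57, 4.83 and 3.80 CPM in MKO 3 h and 3.603, 3.46 and 5.18 CPM in MKO 0 h libraries, against 7.46, 7.41 and 6.44 CPM in WT 3 h and 5.63, 4.40 and 3.06 CPM in WT 0 h libraries. The WT 3 h libraries did not overlap with the MKO 3 h or the WT 0 h libraries. The LPS change was 0.70 in WT (SE 0.22, edgeR adjusted p = 0.022) and did not pass in MKO (0.20, SE 0.22, edgeR adjusted p = 0.58), but the difference between these responses did not pass its own test either (interaction -0.50, SE 0.31, edgeR adjusted p = 0.45). At 3 h Slpi was lower in MKO, with a log2 difference of -0.59 (SE 0.21, edgeR adjusted p = 0.037), and at 0 h the difference was -0.088 (95% interval -0.57 to 0.40). Each of the 2 calls was lost under 6 of 20 alternatives. With library size alone the 3 h genotype difference was -0.34 (edgeR adjusted p = 0.18) and the LPS change in WT was 0.48 (edgeR adjusted p = 0.072). Single libraries also ended them: without WT 0 h replicate 3 the WT LPS change was 0.50 (edgeR adjusted p = 0.076), without WT 0 h replicate 2 or WT 3 h replicate 1 or 2 its adjusted p was 0.053 to 0.066, and the 3 h genotype call was lost without MKO 3 h replicate 2 or 3 or WT 3 h replicate 1 or 2 (edgeR adjusted p = 0.082 to 0.15).

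Hp did not pass in any of the 5 comparisons, counting the difference of the LPS responses. It had 47.0, 44.8 and 43.8 CPM in MKO 3 h and 38.1, 37.9 and 41.6 CPM in MKO 0 h libraries, against 45.0, 42.6 and 37.2 CPM in WT 3 h and 40.1, 36.9 and 31.7 CPM in WT 0 h libraries. The 3 h libraries lay above the 0 h libraries in MKO, by 0.20 on the log2 scale (SE 0.090, edgeR adjusted p = 0.15), and overlapped in WT. The genotype difference had a 95% interval of -0.073 to 0.32 at 3 h and -0.082 to 0.31 at 0 h. With library size alone as scaling, Hp was higher in MKO at 3 h by 0.37 (edgeR adjusted p = 0.0025). The LPS change in WT passed without WT 3 h replicate 3 (0.28, edgeR adjusted p = 0.048), and that in MKO passed without both 0 h libraries that stood apart (0.25, edgeR adjusted p = 0.017). Hp lies on chromosome 8 (109575128 to 109579172, minus strand), Lcn2 on chromosome 2 (32384633 to 32388252, minus strand), Slpi on chromosome 2 (164354070 to 164389095, minus strand) and Lyz2 on chromosome 10 (117277334 to 117282274, minus strand).

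The calprotectin genes S100a8 and S100a9 also passed in none of the 5 comparisons, and their libraries spread widely within each group. S100a9 had 109.6, 110.4 and 81.5 CPM in MKO 3 h and 91.4, 80.2 and 118 CPM in MKO 0 h libraries, against 103, 108 and 85.0 CPM in WT 3 h and 93.4, 107 and 63.2 CPM in WT 0 h libraries. S100a8 had 57.8, 57.8 and 30.6 CPM in MKO 3 h and 46.3, 39.0 and 60.8 CPM in MKO 0 h libraries, against 44.2, 50.04 and 39.4 CPM in WT 3 h and 45.3, 43.0 and 27.3 CPM in WT 0 h libraries. The groups overlapped in every comparison, and the 2 genes, which lie close together on chromosome 3 (S100a8 at 90668978 to 90670035 on the plus strand, S100a9 at 90692632 to 90695721 on the minus strand), kept a ratio of S100a9 to S100a8 counts between 1.90 and 2.66. The intervals leave room for moderate changes: the S100a8 genotype difference was 0.12 at 3 h (95% interval -0.38 to 0.63) and 0.34 at 0 h (-0.16 to 0.84), and that of S100a9 was 0.026 at 3 h (-0.36 to 0.41) and 0.13 at 0 h (-0.26 to 0.52), all on the log2 scale. Both are also abundant in neutrophils, and a list of 14 neutrophil markers summed to 337 to 361 CPM in MKO 3 h, 334 to 361 CPM in MKO 0 h, 358 to 383 CPM in WT 3 h and 319 to 360 CPM in WT 0 h libraries. Csf3r, which macrophages may also express, gave 39.4% of that sum and was lower in MKO at both times, and Stfa2 was at 0 in all libraries. Without Csf3r the list was higher in MKO, with 218 to 239.5 CPM in MKO 3 h and 225 to 243 CPM in MKO 0 h, against 184 to 211 CPM in WT 3 h and 166 to 205 CPM in WT 0 h libraries. By edgeR, Padi4, Cxcr2, Ltf and Mpo were higher in MKO at 3 h, and Padi4, Elane and Mpo at 0 h. The part of other cells in the S100a8, S100a9 and Lcn2 values was not tested.

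The spread of these short transcripts moved with a property of the libraries. S100a9 is at percentile 0.286 and S100a8 at percentile 0.859 of transcript length among the 9427 genes used, where the slope of a library's expression on transcript length, in log2 per doubling of length, was computed against the mean of all libraries. The slopes were 0.0514, 0.0491 and 0.0835 in MKO 3 h, 0.0400, 0.0695 and -0.127 in MKO 0 h, -0.0115, -0.0210 and -0.00100 in WT 3 h, and -0.0750, -0.0910 and 0.0327 in WT 0 h libraries, in replicate order. The 0 h libraries that stood apart had the lowest slope of MKO 0 h and the highest of WT 0 h. In all 4 groups the library with the highest slope had the lowest CPM of Saa3, Hp, Slpi, S100a8 and S100a9, and for S100a9 the library with the lowest slope also had the highest CPM in all 4. The share of all 9427 genes with this order was not counted, so it cannot be read as particular to these members. Of the other members used in the slope, Slpi is at percentile 4.35, Lyz2 at 5.24, Hp at 9.32, Saa3 at 24.3 and Lcn2 at 24.7. At 3 h every MKO library had a higher slope than every WT library, so slope and genotype run together there. The part of this slope in the comparisons, including those of Lcn2, Slpi and Lyz2 between genotypes, was not tested.

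**Figure D2:**
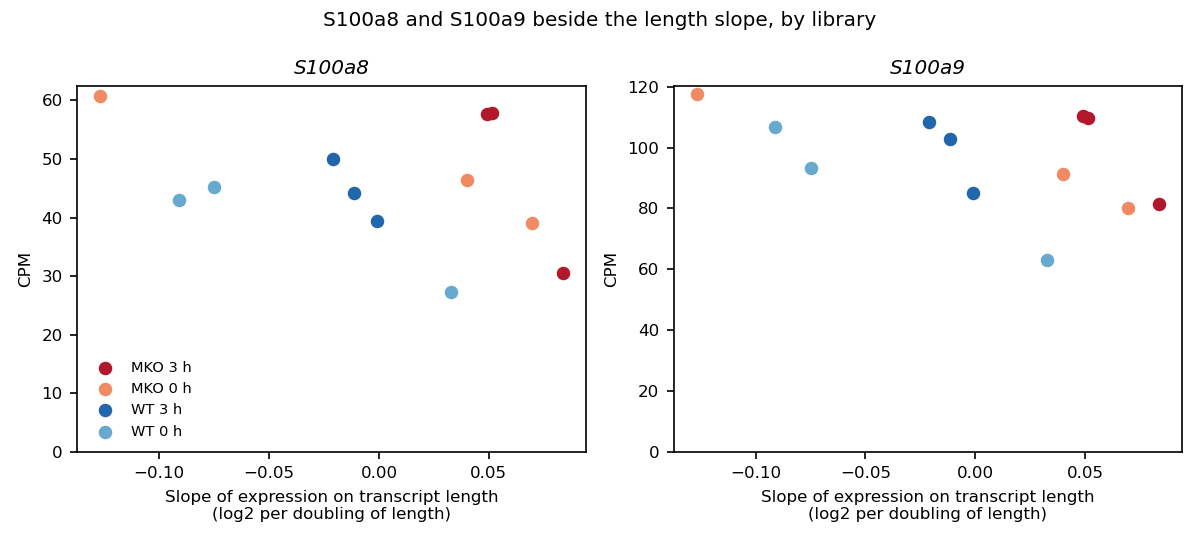
CPM of S100a8 (left) and S100a9 (right) against the slope of each library's expression on transcript length, in log2 per doubling of length, with 1 point per library coloured by group. Within each group the library farthest to the right is the lowest, and for S100a9 these 4 libraries lie between 63.2 CPM (WT 0 h replicate 3) and 85.0 CPM (WT 3 h replicate 3).

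Counted over the members, LPS raised 5 of 9 in MKO (Saa3, Ptx3, Lcn2, Lyz2 and Edn1), where 9.75% of all 12455 genes tested were higher, and 5 of 9 in WT (Ptx3, Lcn2, Slpi, Lyz2 and Edn1), where 17.8% were higher. None was lower by edgeR in either genotype, where 6.08% of all genes were lower in MKO and 14.6% in WT, and the lowest value was that of S100a8 in MKO, at -0.0066 on the log2 scale. No WT 0 h library reached the minimum of 0.574 CPM for Ptx3 or Edn1, and 1 MKO 0 h library did so for Edn1. Edn1 thus entered the test only through the groups in which it is high, while Ptx3 also reached the minimum in all 3 MKO 0 h libraries. The 2 counts of raised members are therefore not support for a response of the group. Of the 6 members tested between genotypes, MKO was lower for 3 at 3 h (Lcn2, Slpi and Lyz2), where 23% of all genes were lower, and for 2 at 0 h (Lcn2 and Lyz2), where 16.4% were lower. The difference of the LPS responses between genotypes passed for none of the 6 in edgeR and none in DESeq2, and in neither tool was an unadjusted p under 0.05 (smallest 0.13 in edgeR and 0.15 in DESeq2), where 6.8% of all genes passed in edgeR. Groups of 3 that do not overlap were common among all genes tested. Libraries at 3 h all lay above those at 0 h for 19.3% of genes in MKO and 24.1% in WT, and all below for 15% in MKO and 21.5% in WT. All MKO libraries lay above WT for 28.7% of genes at 3 h and 19.6% at 0 h, and all below for 32.5% at 3 h and 19.8% at 0 h. For Saa3, Ptx3 and Edn1 the difference of the LPS responses was 0.11, -3.46 and -3.91 on the log2 scale, without a test.

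**Figure D3:**
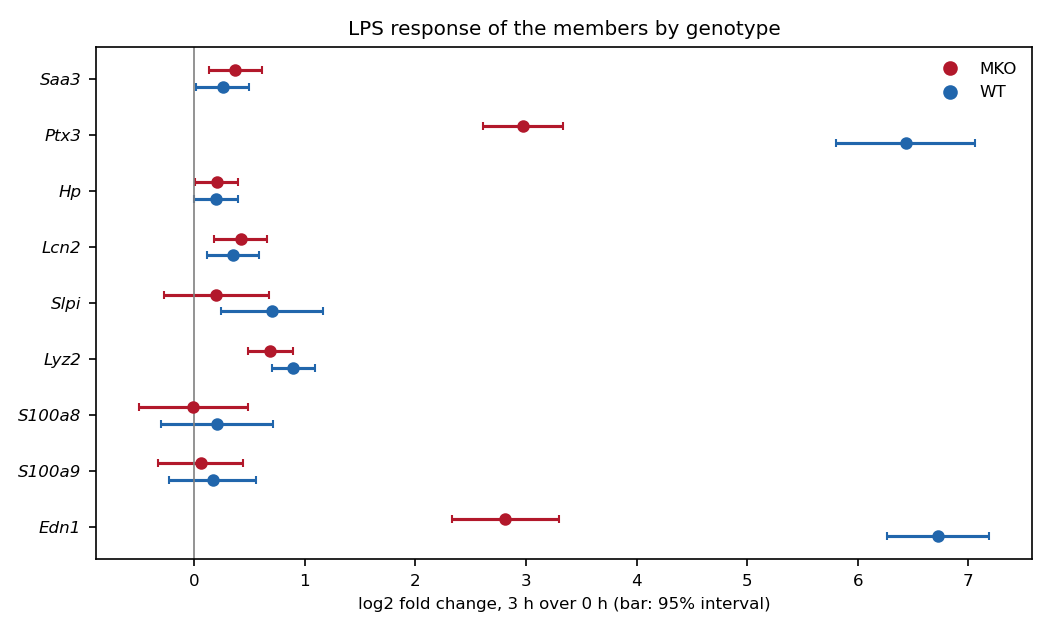
Log2 fold change after LPS, 3 h over 0 h, of each gene in MKO (upper marker) and WT (lower marker), with the 95% interval of the fit. Ptx3 and Edn1 stand at 2.98 and 2.82 in MKO and at 6.43 and 6.73 in WT, and the other 7 lie between -0.0066 and 0.90.

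**Figure D4:**
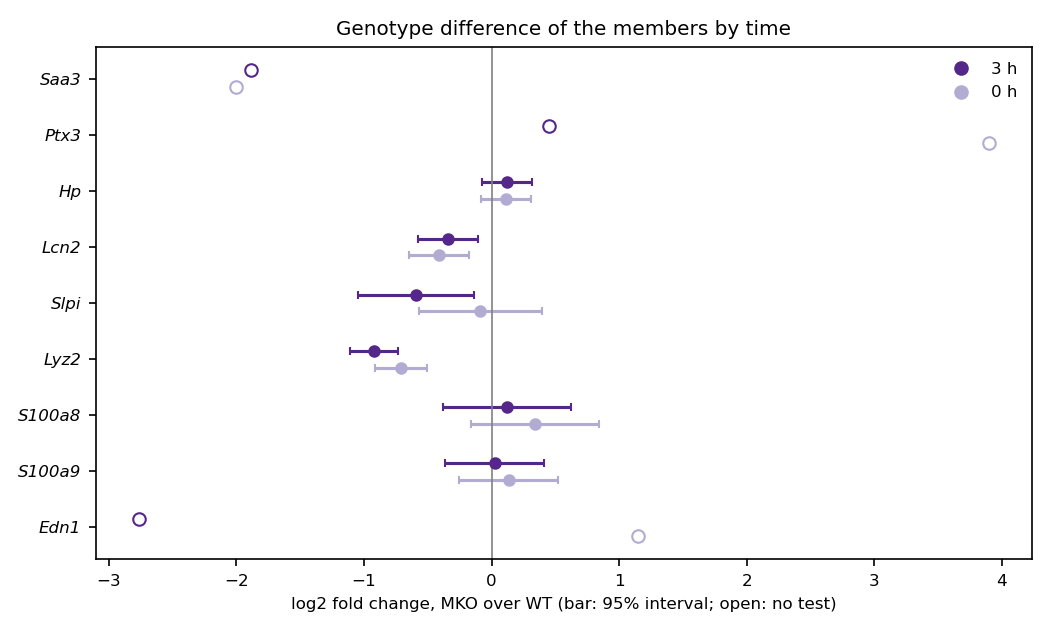
Log2 fold change of MKO over WT for each gene at 3 h (upper marker) and 0 h (lower marker), with the 95% interval where a test was made and an open marker without an interval for the 3 genes chosen for their genotype difference. Saa3 is at -1.89 and -2.001, Ptx3 at 0.45 and 3.90, and Edn1 at -2.77 and 1.14, and among the tested genes Lyz2 is farthest from 0.

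Levels of different genes can be set side by side only per transcript length, which the deposited TPM values, which are scaled by transcript length, allow. Saa3 was the most abundant member in WT, at 1719 ± 82.2 TPM at 3 h and 1656 ± 148 TPM at 0 h (SD, n = 3). In MKO it shared the top place with S100a9 at 3 h, with 581 ± 73.9 TPM for Saa3 and 577 ± 91.1 TPM for S100a9 and overlapping ranges, and S100a9 led at 0 h with 565 ± 73.4 TPM against 460 ± 24.5 TPM for Saa3. S100a8 was the third in all 4 groups, at 210.2 ± 66.7 TPM in MKO 3 h, 214 ± 34.2 TPM in MKO 0 h, 154 ± 18.2 TPM in WT 3 h and 153 ± 32.3 TPM in WT 0 h libraries. Hp, Lcn2 and Lyz2 followed between 31.6 and 84.3 TPM as group means. Hp and Lcn2 overlapped in both WT groups and not in MKO, and Lyz2 stood above both in WT 3 h, at 75.5 ± 6.76 TPM. The place of Lyz2 in this order is uncertain, as is the split of its reads with Lyz1. Slpi, Ptx3 and Edn1 were the lowest 3 in every group. Ptx3 exceeded Slpi in MKO 3 h (16.5 ± 1.13 against 12.02 ± 2.22 TPM) and Edn1 exceeded Slpi in WT 3 h (25.0 ± 0.932 against 14.4 ± 1.13 TPM), while in WT 0 h Ptx3 and Edn1 could not be ordered.

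The macrophage and mesothelial lists were lower in MKO at both times, as Saa3 and Lyz2 were. The 9 macrophage markers summed to 10552 to 10745 CPM in MKO 3 h and 9886 to 10655 CPM in MKO 0 h, against 13982 to 14303 CPM in WT 3 h and 12304 to 12927 CPM in WT 0 h libraries, and by edgeR 6 of the 9 were lower in MKO at 3 h, where 23% of all genes were, and 5 at 0 h, where 16.4% were. Cd14, on the same list, was higher in MKO at 0 h (log2 difference 0.34, edgeR adjusted p = 0.0011). Csf1r and Itgam passed at neither time, with log2 differences of -0.036 and 0.020 at 3 h and of -0.082 and -0.055 at 0 h. The 9 mesothelial markers summed to 0.376 to 0.681 CPM in MKO 3 h and 0.190 to 0.747 CPM in MKO 0 h, against 1.57 to 2.45 CPM in WT 3 h and 1.29 to 1.98 CPM in WT 0 h libraries, with Wt1 and Bnc1 at 0 throughout. At 3 h the endothelial list summed to 57.8 to 63.7 CPM in MKO against 79.1 to 79.5 CPM in WT libraries. The fibroblast list summed to 2.58 to 3.22 CPM in MKO 3 h against 4.65 to 6.46 CPM in WT 3 h. The dendritic cell list summed to 5.98 to 7.28 CPM in MKO 3 h against 9.46 to 9.64 CPM in WT 3 h. At 0 h the genotypes overlapped on each of these lists. The endothelial and fibroblast gaps at 3 h rested on Kdr and Dcn. Without Kdr the endothelial sums at 3 h were 38.9 to 43.0 CPM in MKO and 39.0 to 42.4 CPM in WT. Without Dcn the fibroblast sums were 1.55 to 2.29 CPM in MKO 3 h and 1.06 to 2.64 CPM in WT 3 h. At 0 h they were 1.66 to 2.69 CPM in MKO, above 0.705 to 1.08 CPM in WT. The B cell list was higher in MKO, with 29.7 to 49.5 CPM in MKO against 17.3 to 23.0 CPM in WT libraries. The part of these lists in the Saa3 and Lyz2 differences was not tested.

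Other genes of these pathways were taken from lists, with the 9 genes themselves left out, and each change named from these lists passed in edgeR with an adjusted p of at most 0.049. Changes are on the log2 scale. Of all 12455 genes tested, LPS raised 9.75% and lowered 6.08% in MKO, and raised 17.8% and lowered 14.6% in WT. Between genotypes 19.8% were higher and 23% lower in MKO at 3 h, and 16.5% higher and 16.4% lower at 0 h. The counts of each list below are to be read beside these shares and were not tested against them. Of 27 other acute phase genes, 9 were expressed enough to test, and the liver products Fga, Fgb, Fgg, Apcs, Saa4, Serpina1a, Itih3 and Agt were at 0 in all libraries. LPS raised 3 and lowered none of the 9 in MKO (median log2 fold change 0.31, against -0.012 over all genes), and raised 5 and lowered 1 in WT (median 0.35, against -0.0035 over all genes). Il1rn, the interleukin-1 receptor antagonist, rose by 0.66 in MKO and 1.01 in WT, and Mt2, a metal-binding metallothionein, rose by 1.93 in WT. Between genotypes 4 were higher and 5 lower in MKO at 3 h (median -0.55), and 4 higher and 3 lower at 0 h (median 0.13). Among the lower ones, complement factor B (Cfb) differed by -0.90 at 3 h and -1.23 at 0 h, Il1rn by -0.91 at 3 h, and ceruloplasmin (Cp), a copper-carrying ferroxidase, by -0.97 at 0 h. Among the higher ones, Serpina3g differed by 1.44 at 3 h and 1.18 at 0 h, and Serpina3f by 1.10 at 3 h and 1.32 at 0 h. Lbp differed by 1.16 at 3 h and 1.26 at 0 h.

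Of 25 other antimicrobial genes, 21 were tested. LPS raised 3 and lowered 2 in MKO, and raised 3 and lowered 1 in WT. Acod1, which makes itaconate, rose by 2.50 in MKO and 3.10 in WT, and Nos2, the inducible nitric oxide synthase, by 1.21 in MKO and 1.31 in WT. Between genotypes 3 were higher and 7 lower in MKO at 3 h, and 5 higher and 7 lower at 0 h. Acod1 was lower (-1.14 at 3 h and -0.53 at 0 h), Cybb, the catalytic subunit of the phagocyte NADPH oxidase, was lower (-0.48 at 3 h), and Mpo, a granule peroxidase, was higher by 0.90 at 0 h.

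In the S100 family 6 of 14 other genes were tested, and unlike S100a8 and S100a9 some of them passed between genotypes. MKO was higher for S100a11 at 3 h, by 0.68 (SE 0.11, edgeR adjusted p = 0.00013), and for 3 genes at 0 h, among them S100a11 by 0.90 and S100a4 by 0.60, with none lower. LPS changed none in MKO by edgeR, where the median was -0.25, and raised S100a10 by 0.30 in WT. That their changes differed from those of S100a8 and S100a9 was not tested.

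Around Edn1, its receptor Ednrb and its processing enzyme Ece1 were expressed. Ednrb lay between 35.8 and 36.1 CPM in MKO 3 h and between 34.7 and 42.8 CPM in MKO 0 h, against 77.0 to 86.1 CPM in WT 3 h and 47.6 to 51.1 CPM in WT 0 h libraries. LPS raised it in WT, by 0.75 (SE 0.077, edgeR adjusted p = 2.3e-06), and it was lower in MKO, with differences of -1.20 at 3 h and -0.31 at 0 h. Ece1 was higher in MKO by 0.52 at 3 h (SE 0.082, edgeR adjusted p = 0.00018) and by 0.51 at 0 h (SE 0.083, edgeR adjusted p = 0.00030). Of the 10 genes listed as pentraxins or endothelin partners 5 were tested, and the neuronal pentraxin Nptx1, at most 2.14 CPM, was the 1 that LPS lowered in MKO.

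Of 15 receptors for these secreted proteins 12 were tested, and 3 were higher after LPS in each genotype, with none lower in MKO and 2 lower in WT. Tlr2, a receptor for bacterial lipoproteins, rose by 2.75 in MKO and 2.95 in WT, and Cd69, an early activation marker, by 1.72 in MKO and 2.08 in WT. Between genotypes 2 were higher and 6 lower in MKO at 3 h, and 2 higher and 5 lower at 0 h. Fpr2, a formyl peptide receptor that also responds to serum amyloid A, was lower (-1.37 at 3 h), Fcgr1, an Fc receptor that is also on the macrophage marker list, was lower (-1.02 at 3 h and -0.95 at 0 h), and Emb, a cell adhesion glycoprotein, was higher (0.75 at 0 h).

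All 16 regulators of acute phase transcription were tested. After LPS 7 rose and 1 fell in MKO (median 0.21), and 10 rose and 3 fell in WT (median 0.54). Nfkbiz, the nuclear cofactor IkB-zeta, which in mouse macrophages is needed for Lcn2 induction, rose by 4.62 in MKO and 5.63 in WT, and Zc3h12a, the RNase Regnase-1, by 2.26 in MKO and 2.54 in WT. At 3 h 3 were higher and 9 lower in MKO, among them Nfkbiz (-1.31) and the NF-kB subunit Relb (-0.69). At 0 h 1 was higher and 4 lower, among them Relb (-0.43) and the adaptor Myd88 (-0.38). Over all 12455 genes 19.8% were higher and 23% lower in MKO at 3 h, and 16.5% higher and 16.4% lower at 0 h.

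**Figure D5:**
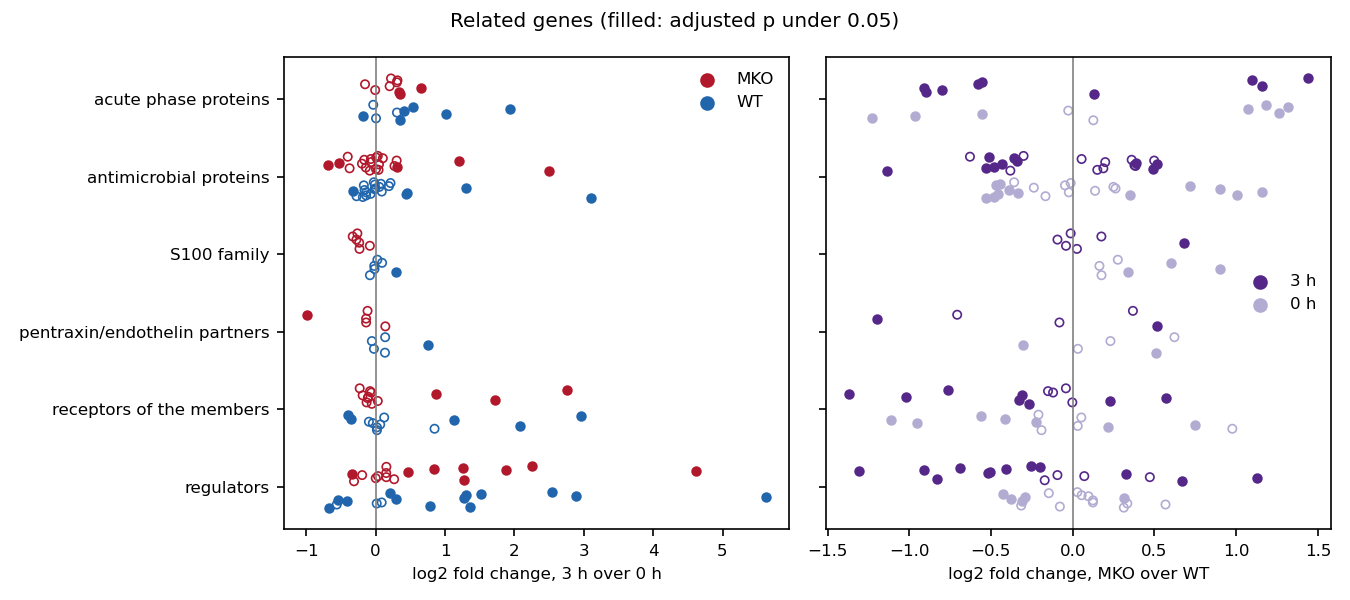
Log2 fold changes of the listed related genes, 1 point per gene and comparison, after LPS in MKO and WT (left) and in MKO over WT at 3 h and 0 h (right), with filled points where the edgeR adjusted p was under 0.05. Regulators reach 4.62 in MKO and 5.63 in WT after LPS (both Nfkbiz), and acute phase genes spread to both sides of 0 between genotypes.

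The genes whose log2(CPM + 1) followed each member most closely over the 12 libraries were found by Pearson correlation, a description in which the 4 groups set most of the variation. Saa3 was matched best by Capza2, Slfn4 and Pirb (r = 0.995, 0.995 and 0.993), Ptx3 by Gpr132, Ralgds and Slc2a1 (r = 0.991, 0.991 and 0.990), and Edn1 by Plek, Tmem200b and Tiparp (r = 0.996, 0.994 and 0.994). Lyz2 was matched best by Nod1 (r = 0.994), Lcn2 by Ppp6c (r = 0.961) and Slpi by Myl12a (r = 0.926). The best matches of Hp (Nup93, r = 0.894), S100a8 (Cnih4, r = 0.889) and S100a9 (Psma2, r = 0.919) were the weakest of the 9 together with that of Slpi, and Psma2 stood among the first 3 for both S100 genes.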

How the data were processed

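Total RNA of peritoneal macrophages was sequenced on Illumina libraries, per the labels' protocols, with fastp and mm10 named in the submitters' processing notes. Not given in the sources used here are the aligner, the counter, the annotation release and the strand setting, and reads of overlapping antisense genes may therefore be mixed. Per the file headers, the deposited table holds raw total counts and TPM for each gene and library.

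The quasi-likelihood test of edgeR 4.0.16 (R 4.3.3) was run on these counts with TMM scaling and the filterByExpr minimum, in a single model of the 4 groups. Of 19195 genes with any count it took in 12455, with Benjamini-Hochberg adjustment over these. CPM used TMM-scaled library sizes, in which 1 count was worth 0.0469 to 0.0647 CPM. SE was derived from the log2 fold change and F statistic. Ratios with a 95% counting interval are exact binomial. DESeq2 1.42.0 was an alternative. TPM served only to order levels of different genes. Named genes are the 9 members, Usp5, and the 2 genes of a list with the smallest p in a comparison. Cell type markers, and listed genes that went the other way, were named in addition. Members and lists were chosen with earlier results of these data known.

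The fit was tested on simulated data: of 50 genes each changed 1.25-, 1.5-, 2- and 4-fold among 12204, 28%, 78%, 98% and 100% were recovered for LPS in WT, and 4%, 40%, 94% and 100% among 12208 for the interaction. The simulation gave all genes 1 common dispersion and, apart from the change, the same level in every group. It held no library that stood apart and no length slope, so these shares need not hold for the genes here. Replicate pairs differed by more than sampling noise, with chi-square per degree of freedom of 1.92 to 2.62 for replicates 1 and 2 and 2.97 to 26.3 for other pairs. Replicate numbers were not treated as pairs in the main model, and whether they pair samples across groups was not settled. The slope on length was fitted over genes with at least 50 counts. Alternatives were other scaling, filters, tools, the groups compared alone, a replicate block, and leaving out each library. Summing replicates 1 and 2, and leaving out both 0 h libraries that stood apart, were chosen after seeing the data. Sequences came from RefSeq (GRCm38.p6) and GENCODE M21 transcripts.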

Additional observations from a re-analysis of the deposited data

Results flagged for a closer look

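Of 69 genes tested from the lists beside the 9 secreted proteins, 9 (13.04%) responded differently to LPS in the 2 genotypes by the interaction of genotype and LPS in edgeR, against 6.8% of all genes. The lists were chosen with earlier results of these data known, so the gap between these shares is not support for an excess. In 8 of the 9 genes the LPS response was lower in MKO, and in Cfb it was higher (0.33, edgeR adjusted p = 0.047). The up to 2 genes with the smallest p in each list, 6 in all, follow. For Mt2 the difference was -1.62 on the log2 scale (SE 0.18, edgeR adjusted p = 4.2e-05), with 10.8 to 12.3 CPM in MKO 3 h and 8.31 to 10.8 CPM in MKO 0 h against 14.7 to 18.4 CPM in WT 3 h and 4.204 to 4.70 CPM in WT 0 h libraries. The 2 MKO groups lay inside the range set by the WT groups. For the regulators it was -1.01 for Nfkbiz (SE 0.10, edgeR adjusted p = 1.5e-05) and -1.01 for Rel (SE 0.16, edgeR adjusted p = 0.00094). For the endothelin receptor gene Ednrb it was -0.89 (SE 0.11, edgeR adjusted p = 0.00011), for Acod1 -0.61 (SE 0.091, edgeR adjusted p = 0.00062) and for Il1rn -0.36 (SE 0.079, edgeR adjusted p = 0.013). No group had 4 or more libraries, so no search for single outlying values was made for these genes. The 0 h libraries that stood apart as a whole, and the fits without each library, are given elsewhere.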

How the results depend on the processing

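Each result was recomputed under 19 to 21 alternatives. The fit of only the groups compared gives no interaction and no value for Edn1 between genotypes at 0 h, and a minimum mean of 5 CPM removes Ptx3 and Slpi. The LPS and genotype changes of Lyz2 passed under all 21. Those of Ptx3 and Edn1 after LPS also did where they gave a value, which is not taken as support. No WT 0 h library reached the minimum for either gene, and 1 MKO 0 h library reached it for Edn1. Libraries with the same replicate number in different groups had correlations of deviations from -0.461 to 0.129. The lowest was between the 0 h libraries that stood apart, and replicates 1 and 2 were the closest pair in every group. These values therefore cannot settle whether replicate numbers pair samples or share a batch. The replicate block changed 1 call among the 9 genes, that of Saa3 after LPS in MKO (0.36, edgeR adjusted p = 0.064). Leaving out 1 library gave 3 to 5 members after LPS in MKO, 3 to 6 after LPS in WT, 1 to 2 between genotypes at 0 h and 1 to 3 at 3 h. With replicates 1 and 2 summed these counts were 3, 3, 1 and 1. After LPS in WT 3 passed with library size alone, and 3 with a minimum mean of 5 CPM. The listed genes with an interaction numbered 9, against 19 without both 0 h libraries that stand apart and 4 with replicates 1 and 2 summed. Library size alone moved the median of all genes by -0.22 for LPS in WT, 0.12 for genotype at 0 h and 0.25 at 3 h. No result that passed changed direction. Depth limits Ptx3 and Edn1 at 0 h, which rest on 4 to 76 counts a group.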
